A study of Mus musculus with 49 samples.

Results

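Nefm, Rbfox3, Uchl1, Map2, Nrcam, Nes and Gal are 7 genes of neurons and neural progenitors, out of 13852 mouse genes that the array probes name. Each was found by the current mouse symbol of its probe, and each had 1 probe; the Map2 probe is listed under an older symbol. Nefm, Rbfox3, Uchl1, Nrcam and Nes had a value on all 49 arrays, Map2 on 41 arrays and Gal on 36. The genes were chosen by their differences between groups on these same arrays: Nefm and Rbfox3 by OCT4+SKM against EV+SKM and against the substitutes, Map2 by EV+SKM against MEF1 EV, Uchl1 by CEBPa+SKM and GRB2+SKM and Gal by MIXL1+SKM, each against EV+SKM. Those differences are given below as a description, without a test. The same holds for every other comparison that uses those arrays: Nefm and Rbfox3 get no test among the groups with SKM, nor do Map2 against EV+SKM or MEF1 EV, Uchl1 against EV+SKM or with CEBPa+SKM and GRB2+SKM, and Gal against EV+SKM or with MIXL1+SKM. Which comparison chose Nrcam and Nes is not recorded, so a test given for them may be of the comparison that chose them.

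The arrays are 1-colour (Cy5) arrays of mouse cells in 23 groups, 20 of them with 2 arrays and 3 with 3, from a screen for factors that add to or replace OCT4, SOX2, KLF4 and c-MYC in reprogramming to pluripotency. The fibroblasts are skin fibroblasts of female OGXICR embryos at D13.5 (limb and tail skin with the epidermis taken off, called MEF), and factors were delivered with doxycycline-inducible lentivirus. SKM stands for SOX2, KLF4 and c-MYC, OKM for OCT4, KLF4 and c-MYC, and EV for the control vector. With SKM, the groups are OCT4+SKM, the 8 substitutes GATA6+SKM, SOX7+SKM, PAX1+SKM, GATA4+SKM, CEBPa+SKM, HNF4a+SKM, GRB2+SKM and MIXL1+SKM, then EV+SKM, and the fibroblasts MEF1 EV that received EV alone. With OKM, the groups are OKM+SOX1, OKM+SOX3, OKM+GMNN and OKM+SOX2, and OKM+EV with its fibroblasts MEF2 EV. The pluripotent lines are G6Gm iPSC, G3 iPSC and Dlx3RNAi iPSC (labelled with Dlx3 RNAi), whose labels give the strain OGXICR, and the embryonic stem cell lines R1 (strain 129) and B6 (strain C57BL\6). The lines grew on mitomycin C-treated feeder fibroblasts in an N2 and B27 medium with PD0325901 and CHIR99021 (or LIF), so feeder RNA can be in their samples. The uninfected fibroblasts are called MEF uninfected. The factors that made G6Gm and G3, the time of infection and whether a line is 1 clone are not given in the labels.

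As background, some cytoskeletal proteins of neurons are made by few other cells. Nefm encodes a neurofilament subunit of axons, and Map2 a microtubule-associated protein of dendrites. Rbfox3, known as NeuN, encodes a splicing regulator of mature neurons, and Uchl1, known as PGP9.5, a ubiquitin hydrolase abundant in neurons. Nrcam encodes an adhesion molecule of axons, and Gal the neuropeptide galanin. Nes encodes nestin, an intermediate filament protein of neural progenitors that other dividing cells also make.

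The start-site regions of the 3 members with the largest differences among those in the RefSeq promoter table (GRCm38.p6) are shown so that they can be read beside the factors delivered. Each run is the 250 bases before the listed start, 5′ to 3′ on the gene's strand. Capitals mark 1 motif per run, either a SOX-type motif, ACAANG (in Rbfox3), or a KLF-type motif, CACCC (in Uchl1 and Gal), on either strand.
Rbfox3, chr11:118761042-118761291, minus strand: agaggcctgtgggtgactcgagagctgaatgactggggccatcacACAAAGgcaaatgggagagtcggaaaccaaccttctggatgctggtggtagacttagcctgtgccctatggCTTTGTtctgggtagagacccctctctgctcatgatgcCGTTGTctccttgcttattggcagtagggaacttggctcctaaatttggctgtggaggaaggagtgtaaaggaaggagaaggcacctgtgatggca
Uchl1, chr5:66675871-66676120, plus strand: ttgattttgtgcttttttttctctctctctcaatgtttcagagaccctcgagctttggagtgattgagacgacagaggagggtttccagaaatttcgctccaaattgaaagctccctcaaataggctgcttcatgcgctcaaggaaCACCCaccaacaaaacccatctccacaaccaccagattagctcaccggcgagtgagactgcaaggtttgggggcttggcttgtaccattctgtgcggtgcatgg
Gal, chr19:3414545-3414794, minus strand: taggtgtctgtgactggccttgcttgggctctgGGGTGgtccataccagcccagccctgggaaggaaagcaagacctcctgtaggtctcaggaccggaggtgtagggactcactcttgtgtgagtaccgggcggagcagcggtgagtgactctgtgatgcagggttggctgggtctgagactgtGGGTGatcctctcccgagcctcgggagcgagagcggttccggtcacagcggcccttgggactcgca

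The Rbfox3 window held 3 matches to ACAANG, which 36.3% of the 32851 windows of this length also held in at least 1 copy. The 5 other members in the table held none. CACCC had 4 matches in the Nrcam window, 2 each in those of Nes and Gal, 1 each in those of Uchl1 and Rbfox3 (left in lower case) and none in that of Map2, against at least 1 in 52.0% of all windows. None of the motifs searched contains another. The octamer ATGCAAAT (1.60% of windows), the E-box CACGTG (6.02%), the GATA motif AGATAA (9.99%), the homeodomain motif TAATTA (4.84%) and the left part of the REST motif, TTCAGCACC (0.301%) were in none of the 6 members' windows, and its right part GGACAGC (5.28%) was in that of Map2 alone. Promoter composition differed among members. GC content was 81.2% for Map2 and 72.4% for Nrcam, 62.4% for Gal, 58.8% for Nes, 52.8% for Rbfox3 and 48.8% for Uchl1, with a median of 52.4% over all windows. The Rbfox3 window lies inside the gene's span (chromosome 11, 118489760 to 118911597), at an internal start. These matches are descriptions of letters in a window. The genes lie on 7 different chromosomes: Nefm on 14 (68119545 to 68125004), Rbfox3 on 11, Uchl1 on 5 (66676121 to 66687234), Map2 on 1 (66175202 to 66442583), Nrcam on 12 (44328786 to 44605194), Nes on 3 (87971093 to 87980451) and Gal on 19 (3409915 to 3414544).

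Values are linear intensities. By their values the arrays fall into 5 sets that appear normalized apart, and intensities are compared only within a set: the 11 groups with SKM and MEF1 EV, the 4 groups with OKM and a factor, OKM+EV with MEF2 EV, the lines with MEF uninfected, and B6 ESC alone. Differences are on the scale of log2(intensity + 32) from 1 limma fit over all arrays, with p adjusted (Benjamini-Hochberg) over every gene tested in the comparison. A gene was called at an adjusted p under 0.05. The third OKM+EV array correlated at 0.843 and 0.884 with the other 2, which correlated at 0.986 with each other, while pairs in the 21 groups other than OKM+EV and OKM+SOX2 (0.905) lay between 0.976 and 0.997. The group means of CEBPa+SKM, HNF4a+SKM and GRB2+SKM correlated at 0.993 to 0.994 with each other, in the range of replicate arrays, and their 6 array medians (412.6 to 416.1) all lay above those of the other 17 arrays of the set (400.8 to 408.1). Whether that shared level has a part in those 3 groups' values was not tested. In bulk samples, fewer cells of a type and less RNA per cell cannot be told apart.

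Nefm and Rbfox3 were far brighter with OCT4+SKM than in any other group of the set. Nefm measured 14966 and 13424 with OCT4+SKM and 362 and 429 with EV+SKM, a difference of 5.06 (SE 0.22), or 33.3-fold. Rbfox3 measured 5396 and 6132 with OCT4+SKM and 159 and 155 with EV+SKM, a difference of 4.93 (SE 0.32), or 30.6-fold. Both genes were chosen for this difference. In MEF1 EV, Nefm measured 1317 and 1386 and Rbfox3 159.7 and 190.3. OCT4+SKM was thus above every other array of the set for both genes, while the fibroblasts themselves held the second highest mean of Nefm. With OCT4+SKM the Nefm mean ranked at the 96.9 percentile of all genes in that group and the Rbfox3 mean at the 90.4 percentile.

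**Figure D1:**
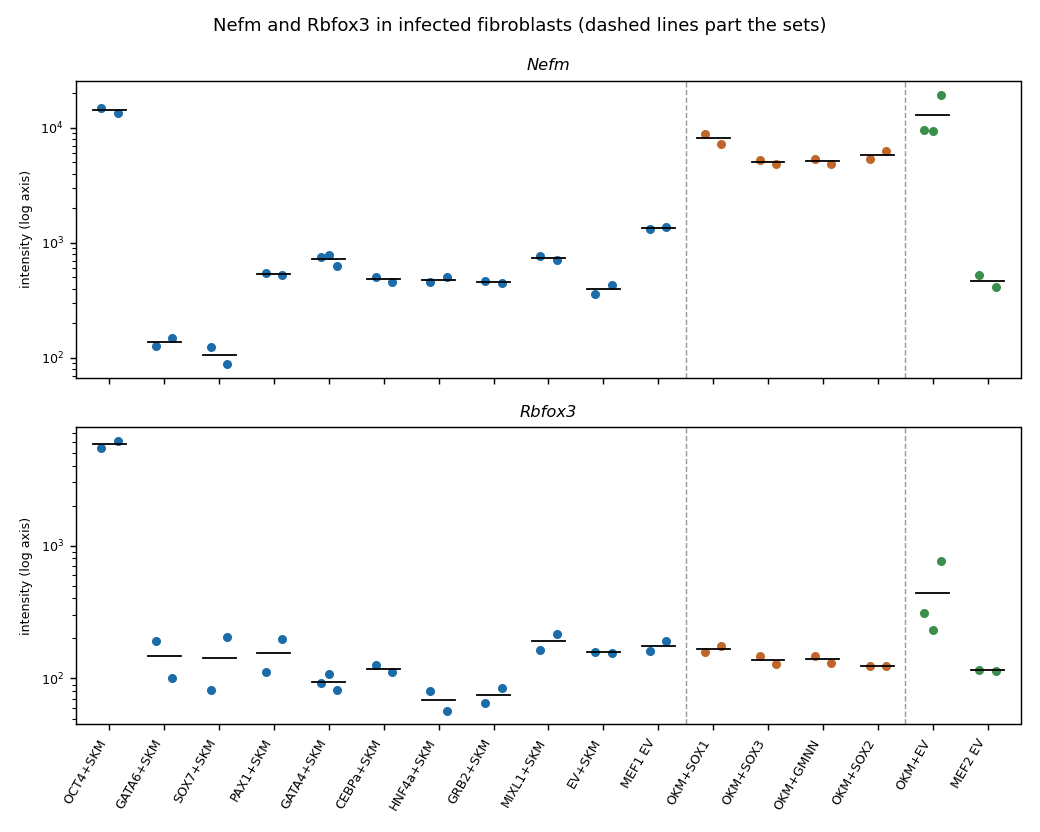
Intensity (log axis) of Nefm (top) and Rbfox3 (bottom) on each array of the infected fibroblasts, 1 point per array, with a line at the group mean. The dashed lines part the 3 normalization sets, which are not comparable with each other. Nefm is at 13424 or more on both OCT4+SKM arrays and at 1386 or less on every other array of the left set.

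None of the 8 substitutes brought Nefm or Rbfox3 near the OCT4+SKM level. The highest substitute array measured 783 for Nefm (GATA4+SKM) and 218 for Rbfox3 (MIXL1+SKM). Among the substitutes Nefm was dimmest with GATA6+SKM and SOX7+SKM. It measured 125 and 149 with GATA6+SKM and 124 and 87.9 with SOX7+SKM, all below the EV+SKM arrays. The differences were -1.33 (SE 0.22) for GATA6+SKM and -1.64 (SE 0.22) for SOX7+SKM. Nefm measured 749.7, 783 and 625 with GATA4+SKM, a difference of 0.81 (SE 0.20). With MIXL1+SKM it measured 772 and 703 and differed by 0.85 (SE 0.22). Rbfox3 was dimmest with HNF4a+SKM, at 80.7 and 57.3, and with GRB2+SKM, at 65.8 and 84.1. Those differences were -0.92 (SE 0.32) and -0.83 (SE 0.32). All these comparisons share the 2 EV+SKM arrays.

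No member was called higher in EV+SKM than in MEF1 EV, and Nefm and Map2 were lower there. Nothing is read from this count of 2 of 7, since both genes were chosen on EV+SKM arrays. In this comparison 19.6% of all 10006 genes were called, 9.95% higher and 9.67% lower. The Nefm difference was -1.70 (SE 0.22). Map2 measured 237 and 229.7 in EV+SKM and 605 and 619 in MEF1 EV, a difference of -1.28 (SE 0.31) for which it was chosen. The other 5 members had differences between -0.23 and 0.49, and Nrcam and Nes did not pass. Among 61 measured genes of 8 neural lists (members left out), 2 rose and 7 fell. Among them are Penk, a precursor of opioid peptides, at -2.15 (SE 0.40, adjusted p = 0.000175), the guidance ligand Sema3a at -1.80 (SE 0.26, adjusted p = 1.17e-05), its receptor Nrp1 at -1.52 (SE 0.19, adjusted p = 3.55e-07) and the peptide gene Cck at 1.56 (SE 0.18, adjusted p = 1.33e-07). Epithelial genes moved with the same comparison. The summed level of 7 measured keratinocyte and epithelial markers was 90024 to 97744 in EV+SKM and 2379 to 2634 in MEF1 EV, and 6 of the 7 rose. Their part in the members' values was not tested.

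Map2 and Nrcam were also higher with OCT4+SKM than with EV+SKM, at smaller sizes. Map2 measured 795 and 788 with OCT4+SKM and differed by 1.63 (SE 0.31), which set it 0.36 above the fibroblasts on the log2 scale. Nrcam measured 250.5 and 246 with OCT4+SKM and 71 and 107 with EV+SKM, a rise of 1.23 (SE 0.34, adjusted p = 0.0148) that 3 of 4 single-array omissions ended (adjusted p up to 0.177). Uchl1 measured 1177 and 1082 with OCT4+SKM and 234 and 401 with EV+SKM, with no overlap and a difference of 1.77 (SE 0.63). In all, 4 of 7 members were called, all higher, beside 11.0% of all genes and 5.29% in that direction. Since Nefm, Rbfox3 and Map2 are 3 of the 4 and were chosen on these arrays, nothing is read from the count. Nes, at 133 and 127, did not pass, and Gal measured 407 and 455.

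Some other neuronal genes rose with OCT4+SKM too, and some fell. Of the 61 genes, 9 rose and 3 fell, with a median difference of 0.04 against -0.03 over all genes. Over all genes 5.29% were called higher and 5.75% lower. Of 10 measured adhesion and guidance genes 4 were called, which are not named here. The cytoskeletal list had 3 of 8 higher and 1 lower, of which the 3 higher are named. Prph, an intermediate filament protein of peripheral neurons, averaged 1061 ± 32.3 with OCT4+SKM and 92.3 ± 14.7 with EV+SKM (SD, n = 2 each), and rose by 3.14 (SE 0.23, adjusted p = 2.08e-11). Gap43, a growth cone protein, rose by 2.15 and Stmn2, a tubulin-binding protein of growing axons, by 1.61. Elavl2, a neuronal RNA-binding protein of the Hu family, averaged 1859 ± 493 with OCT4+SKM and 147 ± 35.1 with EV+SKM (SD, n = 2 each), and rose by 3.39 (SE 0.28, adjusted p = 1.65e-09). It was the only 1 of 8 measured genes of its list that was called. Vgf, a secreted neuronal protein of dense-core granules, rose by 3.75 (SE 0.24, adjusted p = 8.24e-13) and the granule chaperone Scg5 by 1.68, while Cck differed by -1.49, a fall. None of 9 neural progenitor genes and none of 8 synaptic genes passed in the limma fit, and none of them had an unadjusted p under 0.05. Of 6 measured genes of the REST complex, which represses neuronal genes in other cells, none passed and 1 had an unadjusted p under 0.05. Of 4 measured neuron markers 2 rose, the Gap43 and Stmn2 already given, so this list adds no further gene. The summed level of the 4 was 4334 to 5176 with OCT4+SKM, against 1890 to 2014 with EV+SKM. With SOX7+SKM that sum overlapped with OCT4+SKM, at 4047 to 5204 with 1 of the 4 called higher, and with CEBPa+SKM it was 3265 to 3352, with 2 of 4 called higher. The lists were chosen with earlier results of these arrays known. The epithelial marker sum was 48237 to 49921 with OCT4+SKM, against 90024 to 97744 with EV+SKM, and its part was not tested.

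Uchl1 was bright with 6 of the 8 substitutes. It measured 4413, 3353 and 3486 with GATA4+SKM, 3412 and 4316 with CEBPa+SKM and 3426 and 3798 with GRB2+SKM. It measured 2676 and 2563 with SOX7+SKM, 2383 and 2625 with HNF4a+SKM and 1935 and 2634 with GATA6+SKM. All of these arrays lay above every array of OCT4+SKM, EV+SKM and MEF1 EV (162 and 330.4). PAX1+SKM, at 271 and 251, and MIXL1+SKM, at 400.0 and 333, overlapped with EV+SKM. The differences from EV+SKM lay between 2.75 (GATA6+SKM) and 3.51 (CEBPa+SKM) in these 6 groups. The comparison with MEF1 EV uses other arrays than the choice of the gene did, CEBPa+SKM and GRB2+SKM aside. The group mean of HNF4a+SKM correlated with those of these 2 groups at 0.9927 and 0.9928. Its test may therefore repeat the values that chose the gene. Against MEF1 EV, Uchl1 rose with GATA4+SKM by 3.82 (SE 0.58, adjusted p = 1.71e-06), with SOX7+SKM by 3.32 (SE 0.63, adjusted p = 0.000105), with HNF4a+SKM by 3.26 (SE 0.63, adjusted p = 7.73e-05) and with GATA6+SKM by 3.11 (SE 0.63, adjusted p = 0.00017). It also rose with OCT4+SKM, by 2.13 (SE 0.63, adjusted p = 0.013), a call that 3 of 4 omissions of an array ended (adjusted p up to 0.165). It did not pass with PAX1+SKM (adjusted p = 0.903) or MIXL1+SKM (adjusted p = 0.569). These tests share the 2 MEF1 EV arrays. In the order of group means, CEBPa+SKM, GATA4+SKM and GRB2+SKM overlapped with their neighbours, and so did SOX7+SKM, HNF4a+SKM and GATA6+SKM. The gap between GRB2+SKM and SOX7+SKM, and those on both sides of OCT4+SKM, had no overlap.

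**Figure D2:**
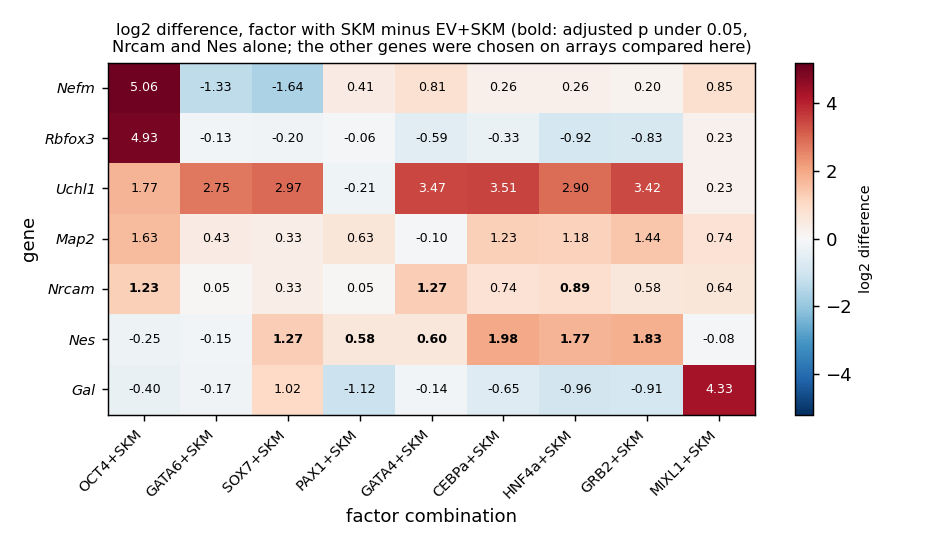
Log2 difference on the scale of log2(intensity + 32) of each gene (rows) with each factor and SKM minus EV+SKM (columns), as colour and number, with 2 to 3 arrays per group. Bold numbers passed an adjusted p of 0.05 and are marked for Nrcam and Nes alone, since the other genes were chosen on arrays compared here. Nefm and Rbfox3 stand out with OCT4+SKM, Uchl1 with 6 substitutes and Gal with MIXL1+SKM.

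Nes, the progenitor filament gene, rose with 6 substitutes and not with OCT4+SKM. It measured 771 and 694 with CEBPa+SKM, 712 and 604 with GRB2+SKM and 601 and 659 with HNF4a+SKM, against 153 and 171 with EV+SKM and 125 and 132 in MEF1 EV. SOX7+SKM followed at 518 and 362. GATA4+SKM, at 271, 279 and 237, and PAX1+SKM, at 304 and 217, overlapped with each other and lay above both EV+SKM arrays. The differences were 1.98 (SE 0.20, adjusted p = 2.61e-09) for CEBPa+SKM, 1.83 for GRB2+SKM and 1.77 for HNF4a+SKM. They were 1.27 (SE 0.20, adjusted p = 2.47e-05) for SOX7+SKM, 0.60 (SE 0.18, adjusted p = 0.00575) for GATA4+SKM and 0.58 (SE 0.20, adjusted p = 0.041) for PAX1+SKM. The PAX1+SKM call was lost in 3 of 4 single-array omissions (adjusted p up to 0.452). The GATA4+SKM call was lost in 1 of 5 (adjusted p up to 0.0677).

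Map2 was also brighter with CEBPa+SKM, HNF4a+SKM and GRB2+SKM than with EV+SKM. It measured 702 and 674 with GRB2+SKM, 597 and 584 with CEBPa+SKM and 559 and 578 with HNF4a+SKM. The differences were 1.44 (SE 0.31), 1.23 (SE 0.31) and 1.18 (SE 0.31) in that order. These levels were close to those of MEF1 EV, from which they differed by 0.16, -0.05 and -0.10. The 3 groups with this pattern are those whose profiles correlated like replicate arrays. Nrcam rose most with GATA4+SKM, at 325, 239.7 and 215, by 1.27 (SE 0.31, adjusted p = 0.00109). With HNF4a+SKM it measured 178 and 202 and passed at 0.89 (SE 0.34, adjusted p = 0.0352), a call that 3 of 4 omissions ended (adjusted p up to 0.241).

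Gal, the galanin gene, was high in a single group of the set. It measured 11916 and 12612 with MIXL1+SKM and 672 and 499 with EV+SKM, a difference of 4.33 (SE 0.43), or 20.1-fold, for which the gene was chosen. Next came SOX7+SKM at 1209.7 and 1204, above both EV+SKM arrays, with a difference of 1.02 (SE 0.43). PAX1+SKM, at 241 and 259, was lowest by mean, with a difference of -1.12 (SE 0.43). The 2 MEF1 EV arrays, at 702 and 227, spanned most of the other groups. Against MEF1 EV, which the choice of the gene did not use, Gal rose with SOX7+SKM by 1.51 (SE 0.43, adjusted p = 0.00774), a call that 1 of 4 omissions ended (adjusted p = 0.251). MIXL1+SKM had few calls against EV+SKM, with 2.08% of all genes called and 2 of 7 members, Gal and Nefm, both chosen on these arrays. Of the 61 neural list genes, 3 rose and 1 fell. Penk averaged 4699.6 ± 515 with MIXL1+SKM and 754 ± 139 with EV+SKM (SD, n = 2 each), and rose by 2.60 (SE 0.40, adjusted p = 0.000102). Elavl2 rose by 2.25 and Cck by 1.22, while the adhesion gene Chl1 differed by -0.81. The epithelial marker sum was 84109 to 88088 with MIXL1+SKM, against 90024 to 97744 with EV+SKM.

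**Figure D3:**
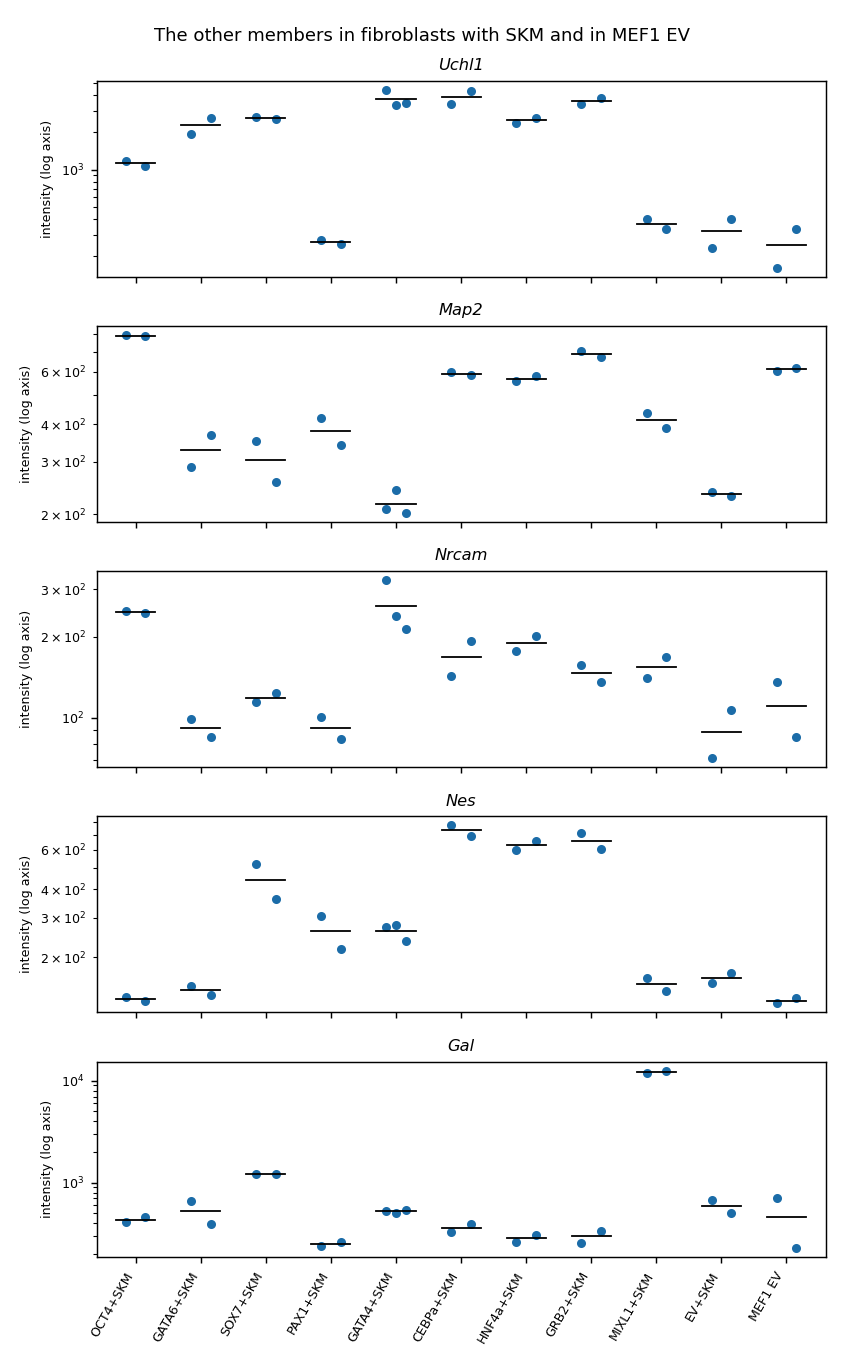
Intensity (log axis) of Uchl1, Map2, Nrcam, Nes and Gal on each array of the SKM set, 1 point per array, with a line at the group mean. Uchl1 is at 1935 or more in 6 substitutes, Nes is highest in CEBPa+SKM, HNF4a+SKM and GRB2+SKM, and Gal is at 11916 or more only on the 2 MIXL1+SKM arrays.

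Nothing is read from how many members each substitute called against EV+SKM, since 5 of the 7 genes were chosen on those arrays. GATA4+SKM had 4 of 7 members called (53.8% of all genes), HNF4a+SKM 5 (42.4%), GRB2+SKM 4 (40.3%) and CEBPa+SKM 3 (34.6%). GATA6+SKM had 2 (22.0%), SOX7+SKM 3 (12.1%) and PAX1+SKM 1 (15.7%). The neural lists moved in both directions. They had 20 genes higher and 22 lower of 61 with GATA4+SKM, where the glutamate receptor subunit Grin1 rose by 2.40 and the calmodulin-binding Nrgn differed by -2.26. They had 13 higher and 9 lower with CEBPa+SKM, 15 and 14 with HNF4a+SKM, and 14 and 13 with GRB2+SKM. In these 3 groups the progenitor transcription factor gene Zic2 differed by -1.77, -1.94 and -1.83, opposite in direction to Nes. With SOX7+SKM, 10 rose and 5 fell. Stmn2 rose there by 2.20 and Vgf by 1.80, and Chl1 differed by -2.73. PAX1+SKM had 13 higher and 3 lower, and GATA6+SKM had 6 and 12. The epithelial marker sum was 18897 to 19291 with HNF4a+SKM, 21871 to 22455 with GRB2+SKM, 25628 to 28938 with GATA4+SKM and 33542 to 34300 with CEBPa+SKM, all below EV+SKM. It was 16671 to 18882 with PAX1+SKM, 70179 to 79643 with SOX7+SKM and 108306 to 118529 with GATA6+SKM, and its part in the members' values was not tested.

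Set against the fibroblasts, Nefm was lower in all 8 substitute groups and higher with OCT4+SKM. These comparisons share the MEF1 EV arrays. The Nefm difference from MEF1 EV lay between -3.34 (SOX7+SKM) and -0.85 (MIXL1+SKM) in the substitutes, and was 3.36 (SE 0.22) with OCT4+SKM. The counts of calls against MEF1 EV include Nefm, Rbfox3 and Map2, so nothing is read from them either. Of the 7 members, 6 were called with GATA4+SKM (58.1% of all genes), 5 with SOX7+SKM (34.7%), and 4 each with OCT4+SKM (22.3%), HNF4a+SKM (52.7%) and GRB2+SKM (50.5%). There were 3 each with GATA6+SKM (39.4%) and CEBPa+SKM (48.3%), and 2 each with PAX1+SKM (18.5%) and MIXL1+SKM (24.1%). Map2 was below MEF1 EV with GATA4+SKM, with a difference of -1.37 (SE 0.28). In the mean of the 8 substitutes against OCT4+SKM, 1 member was called higher and 4 lower, beside 32.7% of all genes called, 19.4% higher and 13.4% lower. Nefm and Rbfox3, 2 of the 4, were chosen in part by this comparison, so nothing is read from that count. Nes was higher in the mean of the substitutes by 1.23 (SE 0.15, adjusted p = 7.9e-08), with no overlap between the array ranges. The gap was narrow for GATA6+SKM, at 148 and 136, and MIXL1+SKM, at 162 and 142, against 133 and 127 with OCT4+SKM. Nes was brightest in CEBPa+SKM, GRB2+SKM and HNF4a+SKM, whose profiles correlated like replicate arrays. Map2 differed by -0.90 (SE 0.23, adjusted p = 0.00376), a fall whose call 2 of 19 omissions of an array ended. The differences of Nefm, -5.08 (SE 0.16), and Rbfox3, -5.29 (SE 0.24), are therefore descriptions. Nrcam passed at -0.66 (SE 0.25, adjusted p = 0.0452) with overlapping arrays, and 11 of 19 omissions ended its call.

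Nefm was also high with OKM, where Rbfox3 moved less. In OKM+EV, Nefm measured 9526, 9466 and 19481, against 527 and 411 in MEF2 EV. The OKM+EV arrays were all above MEF2 EV, and the third was the highest. The difference was 4.60 (SE 0.20, adjusted p = 4.14e-18), with an adjusted p of 0.00185 when the 5 arrays were fitted alone. Without the third array it was 4.26 (SE 0.15, adjusted p = 1.6e-20). Rbfox3 measured 312, 231 and 767 in OKM+EV and 117 and 114 in MEF2 EV, a rise of 1.50 (SE 0.30, adjusted p = 0.000129), or 2.82-fold, that did not pass with the 5 arrays fitted alone (adjusted p = 0.147). These 2 of 7 members were called, beside 40.4% of all 11947 genes, or 663 genes when fitted alone.

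The third OKM+EV array moved the values of Uchl1, Nrcam, Gal and Map2. Uchl1 measured 106, 123 and 2214 in OKM+EV, against 299 and 288 in MEF2 EV. Its first 2 arrays lay below MEF2 EV and the third far above, and the difference of 0.16 (SE 0.58) turned to -1.15 (SE 0.24, adjusted p = 0.000181) without that array. Nrcam measured 74.2, 67.2 and 308 in OKM+EV and 162 and 252 in MEF2 EV, and passed without the third array, at -1.19 (SE 0.23, adjusted p = 4.98e-05). Gal measured 1022, 832 and 251 in OKM+EV and 574 and 370.3 in MEF2 EV, and likewise passed without it, at 0.95 (SE 0.31, adjusted p = 0.0114). Map2, at 241, 382 and 1025 in OKM+EV and 342 and 292 in MEF2 EV, did not pass with or without it, but passed without the first array, at 0.93 (SE 0.24, adjusted p = 0.00335). Nes did not pass either way, at 371, 401 and 229 in OKM+EV and 394 and 409 in MEF2 EV. Of 82 measured neural list genes, 19 rose and 9 fell in OKM+EV, while over all genes 19.5% were called higher and 20.9% lower. With the 5 arrays fitted alone 8 were higher and 1 lower, and without the third array 34 were higher and 13 lower. Over all genes, the count of calls without the third array stayed within 1.5 times that with all arrays. Nefl, the light neurofilament subunit that pairs with Nefm, averaged 798 ± 487 (SD, n = 3) in OKM+EV and 79.6 ± 9.90 (SD, n = 2) in MEF2 EV, and rose by 2.75. Elavl2 rose by 2.50, Cck by 2.36 and Vgf by 2.16. These 4 also passed with the set fitted alone (adjusted p = 0.0251, 0.0269, 0.00791 and 0.0189 in the same order) and without the third array. Nrp1, the only 1 of the 82 called lower with the set fitted alone, differed by -1.94 (adjusted p = 0.0146). Without the third array Nrp1 differed by -2.03 (adjusted p = 1.24e-10) and the granule gene Chgb by -3.77 (adjusted p = 2.13e-17). Chgb did not pass with the set fitted alone (-2.43, adjusted p = 0.289). The epithelial marker sum was 37555 to 64645 in OKM+EV, against 1997 to 2402 in MEF2 EV, and its part was not tested.

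Adding SOX1, SOX3 or GMNN in place of SOX2 to OKM changed few members. Nefm was high in all 4 groups, at 8922 and 7268 with OKM+SOX1, 5256 and 4865 with OKM+SOX3, 5348 and 4844 with OKM+GMNN and 5356 and 6267 with OKM+SOX2. Its means ranked at the 92.8 to 96.1 percentiles of genes, and no group passed against OKM+SOX2. Rbfox3 lay between 124 and 176 on these 8 arrays, with means at the 13.7 (OKM+SOX2) to 22.6 (OKM+SOX1) percentiles of genes. By name OKM+SOX2 holds the same 4 factors as OCT4+SKM, where the Rbfox3 mean ranked at the 90.4 percentile. Those groups lie in different sets, and the difference between them was not tested. Nes was highest with OKM+SOX2. It measured 232 and 279 with OKM+GMNN, 319 and 434 with OKM+SOX1 and 558 and 404 with OKM+SOX3, against 664 and 568 with OKM+SOX2. It passed as lower with OKM+GMNN, at -1.17 (SE 0.20, adjusted p = 0.000191), and with OKM+SOX1, at -0.67 (SE 0.20, adjusted p = 0.0404). With the 8 arrays fitted alone neither passed (adjusted p = 0.0532 and 0.343), and 3 of 4 omissions ended the OKM+SOX1 call. Background shares were 7.09% for OKM+GMNN, 5.43% for OKM+SOX1 and 6.10% for OKM+SOX3, where no member passed and none had an unadjusted p under 0.05. Uchl1, at 403 and 482 with OKM+SOX3 and 1412 and 861 with OKM+SOX2, did not pass at -1.26 (SE 0.63, adjusted p = 0.247), but did when the third OKM+EV array was left out of the fit, at -1.26 (SE 0.24, adjusted p = 0.000796). Gal measured 449 to 930 and Nrcam 53.4 to 124 over the 8 arrays, with no call. Map2 has no value in this set.

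**Figure D4:**
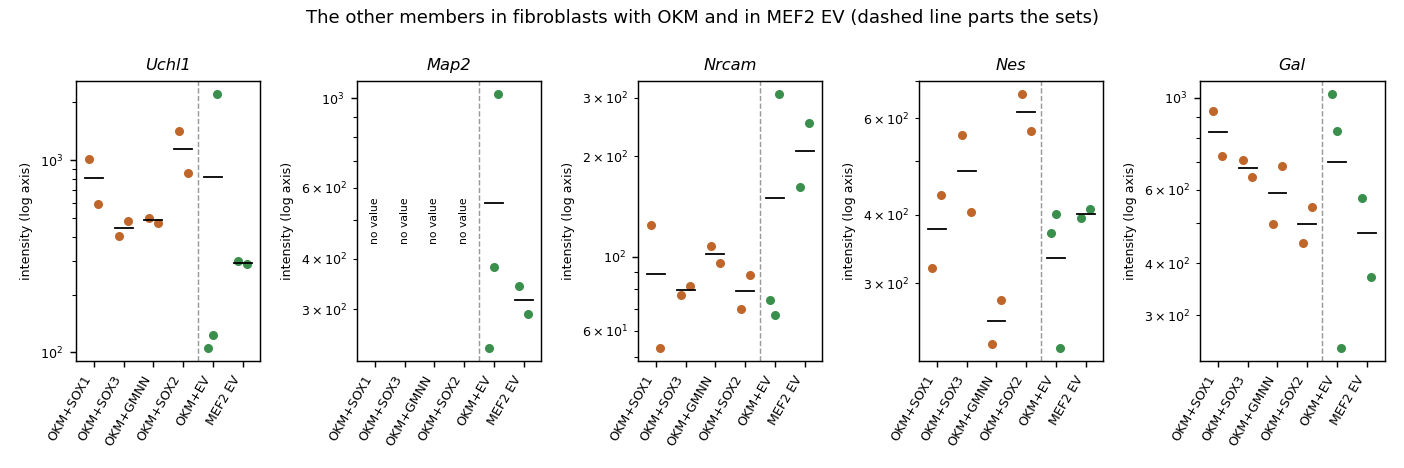
Intensity (log axis) of Uchl1, Map2, Nrcam, Nes and Gal on each array with OKM and in MEF2 EV, 1 point per array, with a line at the group mean. The dashed line parts the 2 normalization sets. The third OKM+EV array is far from the other 2 for Uchl1, at 2214 against 106 and 123.

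In the pluripotent lines the members split by gene. Of 6 measured members, 2 were higher and 3 lower in the mean of the 4 lines than in MEF uninfected, beside 57.8% of all 11991 genes, 28.8% higher and 29.1% lower. Line by line, 5 members were called in Dlx3RNAi iPSC (48.2% of genes) and in R1 ESC (53.1%), 4 in G6Gm iPSC (40.1%) and 3 in G3 iPSC (52.2%). The 5 measured pluripotency markers summed to 9993 to 17897 in the lines and 675 to 683 in MEF uninfected. Uchl1 measured 5418 to 5984 on the 8 arrays of the lines, against 1082 and 1321 in MEF uninfected, and rose by 2.22 (SE 0.50, adjusted p = 0.000347). It ranked at the 96.2 to 96.5 percentiles of genes in the lines and at the 97.1 percentile in B6 ESC, where it measured 14927, 11899 and 14830.0 in another set. Nes measured 253 to 375 in the lines and 725 and 605 in MEF uninfected, and differed by -1.04 (SE 0.16, adjusted p = 1.16e-06), a fall. Map2 measured 57.1 to 86.7 in the lines and 241 and 206 in MEF uninfected, and differed by -1.31 (SE 0.25, adjusted p = 5.99e-05). Rbfox3 stayed dim, at 74.5 to 133 in the lines and 46.2 and 44.4 in MEF uninfected, with a rise of 0.69 (SE 0.25, adjusted p = 0.0219) that 2 of 10 omissions ended. Nrcam, at 28.2 to 77.3 in the lines and 75.6 and 114 in MEF uninfected, did not pass (adjusted p = 0.0732).

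Nefm differed among the lines themselves. It measured 189 and 216 in G6Gm iPSC, 338 and 308 in G3 iPSC, 84 and 61.2 in Dlx3RNAi iPSC, 153 and 119 in R1 ESC and 268 and 242 in MEF uninfected. No 2 groups overlapped. The Nefm means were dim, from the 12.5 percentile of genes in Dlx3RNAi iPSC and 28.1 in R1 ESC to 49.4 in G3 iPSC. Against R1 ESC, Nefm was higher in G3 iPSC by 1.08 (SE 0.22, adjusted p = 0.00105), beside 8.15% of genes called. It was lower in Dlx3RNAi iPSC, at -0.69 (SE 0.22, adjusted p = 0.023), beside 19.3%, a call that 2 of 4 omissions ended (adjusted p up to 0.24). No other member passed in any iPSC line against R1 ESC, with 17.5% of genes called in G6Gm iPSC, where 1 of 6 had an unadjusted p under 0.05. In the mean of the 3 lines none of 6 passed or had an unadjusted p under 0.05 (13.3% of genes called). The mean of the 4 lines against MEF uninfected was lower for Nefm, at -0.56 (SE 0.17, adjusted p = 0.00633), a call that 1 of 10 omissions ended. The array ranges overlapped, since G3 iPSC lay above the fibroblasts, a difference that did not pass (0.31, SE 0.22, adjusted p = 0.241). In B6 ESC, Nefm measured 1104, 1179 and 1100.2, Rbfox3 199, 207 and 199, Map2 240.0, 236 and 232, Nrcam 151, 148 and 181 and Nes 331, 368 and 336. These have no fibroblast array of the same set beside them. Of 81 measured neural list genes, 33 were higher and 25 lower in the 4 lines than in MEF uninfected. Over all genes 28.8% were called higher and 29.1% lower. The neurofilament genes Nefh and Nefl rose by 3.24 and 2.29, unlike Nefm, and Sox2, a factor of pluripotent and neural progenitor cells, by 5.22. Gap43 differed by -3.02 and the guidance ligand Slit2 by -3.72. The fibroblast marker sum (7 measured genes) was 9568 to 38134 on the arrays of the lines, lowest in G3 iPSC and highest in Dlx3RNAi iPSC, against 31855 to 33657 in MEF uninfected. Its part in the members' values was not tested.

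**Figure D5:**
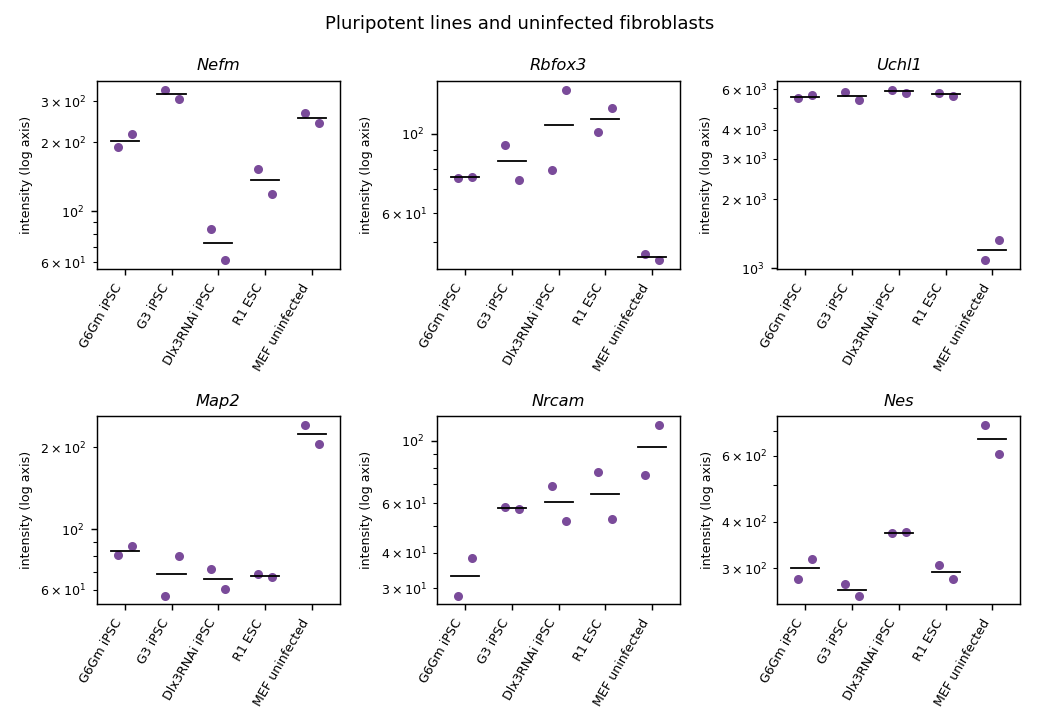
Intensity (log axis) of Nefm, Rbfox3, Uchl1, Map2, Nrcam and Nes on each array of the pluripotent lines and of MEF uninfected, 1 point per array, with a line at the group mean. Uchl1 is higher and Map2 and Nes are lower in all 4 lines than in MEF uninfected, while Nefm differs among the lines. Gal has no value in this set.

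The 7 members did not share a pattern. Over the 11 group means of the SKM set, on the log2 scale, Uchl1 and Nes correlated at 0.67. Nefm and Uchl1 correlated at -0.25, and Rbfox3 and Nes at -0.50. Among 6581 brighter genes, the patterns most like Nefm were those of Fbln7 (r = 0.91), Cdh4 (0.90) and Map2k6 (0.89). Rbfox3 was most like Tmem150c (0.98), Otog (0.98) and F5 (0.97), all highest with OCT4+SKM, the group for which Rbfox3 was chosen. Uchl1 was most like Lap3 (0.96), 4921524J17Rik (0.94) and Sinhcaf (0.92), and Nes like Epb41l2 (0.97), Setd3 (0.97) and Palld (0.97). Map2 was most like Ncald (0.88), Zfp105 (0.81) and Tmed5 (0.79), and Nrcam like Kif22 (0.87), Spc24 (0.86) and Ube2ql1 (0.85). Gal was most like Il1a (0.90), Lxn (0.89) and Krt27 (0.88), all highest with MIXL1+SKM. These correlations describe 11 group means that share arrays and normalization, and carry no test.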

How the data were processed

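The deposited table holds linear intensity values, 1 per probe and array. Which software and normalization made them is not given in the sources used here. Within the deposited intensity values, arrays fall into 5 sets with nearly equal sorted values and the same probes without a value, and comparisons stay within a set. Of 19426 probes, 15539 had 1 gene symbol. The brightest probe stood for a gene.

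Tests used limma 3.58.1 (R 4.3.3) on log2(intensity + 32), with a mean per group over all 49 arrays, an intensity trend and Benjamini-Hochberg adjustment over all genes of a comparison (33 comparisons in 8 families), two-sided, at 0.05. The fit was tested on simulated data, where it gave excess false calls in the sets with OKM. It pools the spread over sets, which understates it for the groups with OKM, so fits of each set alone are given there. Pooling can overstate the spread in the other sets. The median SD between arrays of a group (log2 scale) was 0.160 in the SKM set and 0.142 in that of the lines. It was 0.387 in the set of OKM+EV and MEF2 EV. The number of arrays limits precision. Whether replicates are separate cultures is not given, so p-values measure the spread between arrays. The members and gene lists were chosen with earlier results of these data known. The genes named are the members, up to 4 passing genes per list and comparison with the largest differences, and the 3 most similar patterns per member. Alternatives were other pseudocounts, a fit per set, renewed quantile normalization, a filter on dim genes, no trend, a mean over probes, a replicate block and leaving out each array. A fit without the third OKM+EV array was added after seeing the data.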

Additional observations from a re-analysis of the deposited data

Results flagged for a closer look

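Nefm differed between lines set against the same fibroblasts. Its difference from MEF uninfected was larger in G3 iPSC than in R1 ESC by 1.08 on the log2 scale (limma, adjusted p = 0.00105), and differed between Dlx3RNAi iPSC and R1 ESC by -0.69 (adjusted p = 0.023). G3 iPSC lay above both fibroblast arrays while G6Gm iPSC and Dlx3RNAi iPSC lay below them. Against MEF uninfected, G3 iPSC (0.31, SE 0.22, adjusted p = 0.241) and G6Gm iPSC (-0.29, SE 0.22, adjusted p = 0.292) did not pass. Dlx3RNAi iPSC did, at -1.46 (SE 0.22, adjusted p = 1.83e-06). The differences between those lines, -0.60 for G6Gm iPSC minus G3 iPSC and 1.77 for G3 iPSC minus Dlx3RNAi iPSC, were not tested.

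Nefm was lower in EV+SKM and higher in OKM+EV than in their own fibroblasts. The EV+SKM difference minus the OKM+EV difference was -6.30 for Nefm and -1.62 for Rbfox3. Each compares 2 normalization sets and was not tested. For Rbfox3 the EV+SKM side is small, with 159 and 155 in EV+SKM against 159.7 and 190.3 in MEF1 EV.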

How the results depend on the processing

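Of 96 calls of a member in a comparison, 83 passed under every other setting and 69 under every omission of a single array, and none changed direction. These calls include 42 on arrays that chose the gene, for which no test is given. Of the other 54, 35 passed under every such omission. A pseudocount 4 times larger lost 9 calls, 6 of them of Rbfox3 and 1 each of Nrcam, Nefm (Dlx3RNAi iPSC against R1 ESC) and Nes (PAX1+SKM against EV+SKM), a pseudocount of 16 lost 1 of Nrcam, and fitting each set alone lost 3. The count of calls moved by over 1.5 times in these cases. For the iPSC lines against R1 ESC it was 2, and 1 with the larger pseudocount, 4 with the set fitted alone and 1 to 2 with an array left out. For the substitutes against OCT4+SKM it was 5, and 3 to 5 with an array left out. For OKM+EV against MEF2 EV it was 2, and 1 with the set fitted alone, 5 with the replicate block and 2 to 5 with an array left out. For SOX1, SOX3 and GMNN against OKM+SOX2 it was 2, and 0 with the set fitted alone, 5 with the replicate block, 5 in the fit without the third OKM+EV array and 1 to 2 with an array left out. In OKM+EV the block gives the third array a level of its own, which leaves it out. The other 4 families stayed within 1.5 times: 18 to 27 calls (22 as reported) for the lines against MEF uninfected, 2 for EV+SKM, 21 to 40 (28) for the factors against EV+SKM and 28 to 37 (33) for those against MEF1 EV.

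Over all genes, fitting a set alone moved the count by over 1.5 times in 13 of 29 comparisons without OKM, to 1.59 to 3.32 times (for example 2295 genes against 1104 for OCT4+SKM and 690 against 208 for MIXL1+SKM, both against EV+SKM). It lowered the count in the 4 with OKM, to 663 genes against 4826 (OKM+EV), 24 against 608 (OKM+SOX1), 27 against 682 (OKM+SOX3) and 227 against 793 (OKM+GMNN). The fit without the third OKM+EV array raised 9 of the 29 by 1.51 to 2.28 times, and the replicate block 7 of 29 by 1.57 to 1.99 times. Same-numbered arrays deviated together with median correlations of 0.04 (OKM+EV set), 0.02, 0.01 and 0.07 (OKM, SKM and lines), with ranges of -0.18 to 0.25 (1 of 2 pairs over 0.1), -0.13 to 0.08 (0 of 12), -0.50 to 0.51 (35 of 110) and -0.24 to 0.24 (6 of 20). Not every pair lay over 0.1, so the numbers were not taken to pair the arrays. Dim members (such as Rbfox3 and Nrcam, and Nefm and Map2 in the lines) have the least signal to carry a difference.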
